A study of Mus musculus with 4 samples.

Results

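The genes described here encode ligands, secreted antagonists and target genes of bone morphogenetic protein (BMP) signalling: the ligands Bmp2, Bmp4, Bmp6 and Bmp7, the antagonists Grem1, Nog and Fst, and the targets Id1 and Id3. They were taken as a named set, with every probe set that the array annotation assigned to 1 of them alone, which gave 12 of 45037 tested probe sets and 9 of 18193 genes. Expression was measured on Affymetrix mouse expression arrays in OP9M2, a subclone of OP9 stroma with mesenchymal stem cell properties that supports human hematopoietic progenitors, and in BFC012, a non-supportive fibroblast line from fetal liver. Each line had 2 arrays, called biological replicates in the labels. Both lines received 2000 rad and were plated at 25000 cells per square centimetre, and RNA was harvested after 48 hours. OP9M2 was grown with 20% fetal bovine serum and BFC012 with 10%, so line and serum cannot be told apart. Each line is a single line, so differences describe OP9M2 against BFC012 and not supportive against non-supportive stroma in general. The comparison addressed what OP9M2 is and how it supports hematopoietic cells.

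BMPs are secreted dimers of the TGF-beta superfamily that bind pairs of type I and type II receptor kinases, which phosphorylate Smad1, Smad5 and Smad9. These enter the nucleus with Smad4 and switch on targets, of which the Id genes respond most directly. Antagonists such as gremlin and noggin hold the ligand outside the cell. In mesenchymal cells the pathway is known for its part in bone, cartilage and fat formation, and BMP4 from stroma is known to act on hematopoietic cells.

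Levels are on the log2 scale as RMA gives it, and a difference is OP9M2 minus BFC012 with its standard error (SE). A fold is 2 raised to that difference. Each SE, interval and p is that of limma, which draws the variance of a probe set towards a value shared by all probe sets. The level of 6.09, taken from receptor genes of smell that stroma is not known to use, served as background. Calls required a limma adjusted p under 0.05 together with a 2-fold change, which is 1 log2 unit. Of the 9 genes, 2 were called, both lower in OP9M2 (Grem1 and Bmp4). That is 22.2% of the genes, where 3.56% of all genes were called lower and 2.36% higher. By probe set, 2 of 12 were called lower, where 2.66% of all probe sets were lower and 1.8% higher. Of the 9 genes 5, namely Bmp4, Bmp7, Fst, Id1 and Id3, were above background on all 4 arrays, Grem1 on those of BFC012 alone, and Bmp2, Bmp6 and Nog on none.

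The arrays were unequal in control signals and in the spread within each line. The gap between the 2 arrays of a line had a median of 0.22 log2 units in OP9M2 and 0.16 in BFC012 over all probe sets. OP9M2 replicate 2 had no signal for the poly-A control transcript dap (2.57, against 11.00 in OP9M2 replicate 1 and 10.28 and 9.11 in BFC012 replicates 1 and 2), and it had the highest 18S ribosomal RNA signal at the 3' probe set (14.02, against 11.92, 12.03 and 12.45). The beta-actin signals at the 3' and 5' probe sets were 14.39 and 14.00 in OP9M2 replicate 1 and 14.54 and 14.39 in OP9M2 replicate 2. In BFC012 they were 14.53 and 14.27 in replicate 1 and 14.47 and 14.27 in replicate 2. By these signals OP9M2 replicate 2 had the narrowest gap between 3' and 5'. Markers of the labelled cell types were partly present. Of 8 measured mesenchymal markers 7 were above background on every array, and Thy1 on none. Of 7 fibroblast markers 5 were above background on every array, while Col1a2 was close to background in BFC012 (6.18 and 6.07) and Dcn was below it in OP9M2 (5.62 and 6.04). All 6 mesothelial markers were above background on both BFC012 arrays, and 1 of the 6 (Msln) on the OP9M2 arrays, with mean levels of 10.23 and 10.53 against 4.84 and 5.24. By their brightest probe sets, the defining markers of leukocytes (Ptprc), endothelium (Pecam1, Cdh5) and hepatocytes (Alb, Afp) were above background on no array. Of the 5 probe sets of Afp, however, 1 was called lower in OP9M2, and their differences ran from -2.25 to 0.29. Of the whole lists, 1 of 5 leukocyte markers (Csf1r, 6.89 to 7.07), 1 of 4 endothelial markers (Kdr, 6.52 to 6.88) and 1 of 4 hepatocyte markers (Ttr, 7.16 to 7.49) were above it on all 4 arrays, and the leukocyte marker Cd68 on 3.

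Promoter windows of the RefSeq table, from 250 bases before to 50 after the start site in GRCm38.p6, were at hand for 4 of the 9 genes. Those of the 2 called genes are shown because these genes were lower together, and that of Id3 as the window of a target gene. Capitals mark GGCGCC, a GC-rich element that BMP Smads can bind and that reads the same on both strands, and CAGAC, the short Smad box (GTCTG on the other strand). The Grem1 window lies at chr2:113758599-113758898 on the minus strand, the Bmp4 window at chr14:46390620-46390919 on the minus strand, and the Id3 window at chr4:136143572-136143871 on the plus strand.
Grem1: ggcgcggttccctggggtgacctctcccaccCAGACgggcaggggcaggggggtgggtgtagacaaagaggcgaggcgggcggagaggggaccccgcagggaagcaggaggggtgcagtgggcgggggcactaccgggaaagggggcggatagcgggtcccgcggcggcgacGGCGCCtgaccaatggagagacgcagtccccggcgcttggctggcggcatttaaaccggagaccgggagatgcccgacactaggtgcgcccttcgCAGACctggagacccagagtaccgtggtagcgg
Bmp4: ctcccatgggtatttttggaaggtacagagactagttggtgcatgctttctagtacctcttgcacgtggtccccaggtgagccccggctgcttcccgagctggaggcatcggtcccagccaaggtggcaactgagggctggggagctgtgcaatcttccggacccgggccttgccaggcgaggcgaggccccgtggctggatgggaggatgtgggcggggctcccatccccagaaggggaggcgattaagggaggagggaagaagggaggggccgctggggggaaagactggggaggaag
Id3: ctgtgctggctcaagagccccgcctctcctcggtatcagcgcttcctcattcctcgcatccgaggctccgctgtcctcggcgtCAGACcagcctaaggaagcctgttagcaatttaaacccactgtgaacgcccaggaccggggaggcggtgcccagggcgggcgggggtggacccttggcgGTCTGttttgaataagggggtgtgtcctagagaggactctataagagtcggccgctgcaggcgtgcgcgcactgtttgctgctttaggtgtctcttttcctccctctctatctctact

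The Grem1 window held 1 GGCGCC, starting 78 bases before the start site, and 2 CAGAC boxes. Of 32851 promoter windows of this length, 11.9% held GGCGCC and 49.6% held CAGAC on either strand. The Grem1 window was richer in G and C (70.7%) than the median window (52.7%), and these shares take no account of that. The Id3 window held 2 CAGAC boxes, 1 on each strand, and no GGCGCC. The Bmp4 window held neither, but it held 3 E-boxes (CANNTG), the kind of site that E proteins bind and that 72.3% of all windows held. A match describes the letters alone, and a missing match speaks for these 300 bases only.

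Among the ligands Bmp4 carried the signal, and it was lower in OP9M2. Its level was 10.71 and 11.61 on the OP9M2 arrays and 13.29 and 13.21 on the BFC012 arrays. Both OP9M2 arrays lay below both BFC012 arrays, although Bmp4 was far above background in both lines. The difference was -2.09 ± 0.33 (SE, 2 arrays per line; 95% interval -2.96 to -1.22), a level 4.26-fold lower (limma adjusted p = 0.0458). In bulk RNA, fewer cells that express a gene and less RNA per cell cannot be told apart. A single probe set was named Bmp4 alone, so the value has no second measurement. The call lay close to the threshold. When single arrays were left out, it held without OP9M2 replicate 1 (-1.64) and without OP9M2 replicate 2 (-2.54), and it was lost without BFC012 replicate 1 or 2 (-2.05 and -2.13, adjusted p = 0.386 and 0.383; range over all alternatives 0.00329 to 0.386).

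The other ligands were not called. Bmp2, the closest relative of Bmp4, was at 3.13 and 2.69 in OP9M2 against 2.77 and 2.82 in BFC012, below background on every array. Bmp6, a ligand known from iron control and bone, was at 5.59 and 5.33 in OP9M2 against 5.20 and 5.03 in BFC012, also below background throughout (0.35 ± 0.17, adjusted p = 0.366). For these 2 genes a difference between the lines was not measurable on this array. Bmp7, a ligand of kidney and fat development, had 3 probe sets. The brightest was just above background on all arrays, at 6.40 and 6.38 in OP9M2 against 6.36 and 6.11 in BFC012 (0.16 ± 0.15, adjusted p = 0.674). The 95% interval of that difference ran from -0.25 to 0.57. The other probe sets of Bmp7 were below background on every array, with differences of -0.15 and -0.41. The 3 Bmp7 probe sets thus differed in sign, and none was called.

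**Figure D1:**
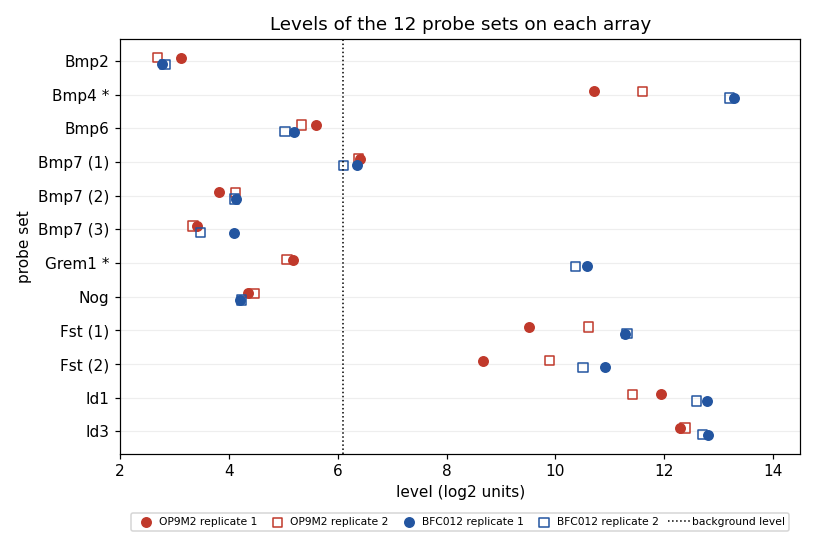
Levels of the 12 probe sets (rows, with the level in log2 units on the horizontal axis) by array, with OP9M2 in red and BFC012 in blue, replicate 1 as filled circles and replicate 2 as open squares, the dotted line at the background level of 6.09 and an asterisk at called probe sets; genes with several probe sets are numbered from the brightest. The OP9M2 symbols of Grem1 lie at 5.18 and 5.06 and its BFC012 symbols at 10.59 and 10.37, and Bmp2, Bmp6 and Nog lie left of the background level on all arrays.

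Of the antagonists, Grem1 separated the lines most. Grem1 encodes gremlin, a cystine knot protein that binds BMP2, BMP4 and BMP7 and blocks their receptors from reaching them. Its level was 5.18 and 5.06 on the OP9M2 arrays and 10.59 and 10.37 on the BFC012 arrays. Grem1 was thus below background on both OP9M2 arrays and well above it on both BFC012 arrays. The difference was -5.35 ± 0.15 (95% interval -5.76 to -4.95, limma adjusted p = 0.00113), and against the background level the transcript was at least 20.9-fold lower in OP9M2. It was between -5.47 and -5.24 when any 1 array was left out. The call was lost without BFC012 replicate 1 or 2, where limma called no probe set of any gene (adjusted p = 0.0826 and 0.0903; range over all alternatives 0.000835 to 0.0903).

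Nog encodes noggin, an antagonist of BMP2 and BMP4 needed in skeleton and neural tube. It was at 4.34 and 4.46 in OP9M2 against 4.20 and 4.23 in BFC012. All 4 values were below background, so no level of Nog could be set for either line.

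Fst encodes follistatin, which binds activins tightly and some BMPs less so. Its brighter probe set was at 9.51 and 10.61 in OP9M2 against 11.28 and 11.32 in BFC012. Its second probe set was at 8.67 and 9.89 in OP9M2 against 10.91 and 10.51 in BFC012. With both probe sets the OP9M2 arrays lay below the BFC012 arrays, and OP9M2 replicate 1 was the lowest of the 4. The differences were -1.24 ± 0.39 and -1.43 ± 0.45 (adjusted p = 0.191 for both; 95% intervals -2.27 to -0.21 and -2.62 to -0.24), and Fst was not called. Without OP9M2 replicate 2, the array without dap signal, the differences were -1.79 and -2.04 and both were called (adjusted p = 0.00743 and 0.0127; ranges over alternatives 0.00743 to 0.665 and 0.0127 to 0.669). Without OP9M2 replicate 1 they were -0.69 and -0.82 and were not called.

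The Id targets were bright in both lines, with lower values in OP9M2 that did not pass the call. Id1 and Id3 encode helix-loop-helix proteins with no DNA-binding region, which sequester E proteins and so hold back differentiation. Id1 was at 11.95 and 11.42 in OP9M2 against 12.78 and 12.59 in BFC012. The lines did not overlap, and OP9M2 replicate 2 was the lowest. The difference was -0.998 ± 0.23 (95% interval -1.60 to -0.40, adjusted p = 0.102), which missed both the p and, barely, the size. With log2 of the deposited values the Id1 difference was -1.44 and missed the p alone. On the scale used, leaving out single OP9M2 arrays moved the call. Without OP9M2 replicate 1 it was -1.26 and called (adjusted p = 0.0274; range over alternatives 0.0274 to 0.547), and without OP9M2 replicate 2 it was -0.74 and was not.

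Id3 was at 12.30 and 12.38 in OP9M2 against 12.82 and 12.70 in BFC012. These values did not overlap either, and each line's arrays lay 0.09 and 0.11 log2 units apart. The difference was -0.42 ± 0.14 (95% interval -0.78 to -0.05, adjusted p = 0.207), or 1.34-fold. On the scale used, the interval left out a fold of 2 in either direction for Id3, but not for Id1. With log2 of the deposited values the Id3 difference was -0.60 ± 0.20, and its interval no longer left out a 2-fold lower level.

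**Figure D2:**
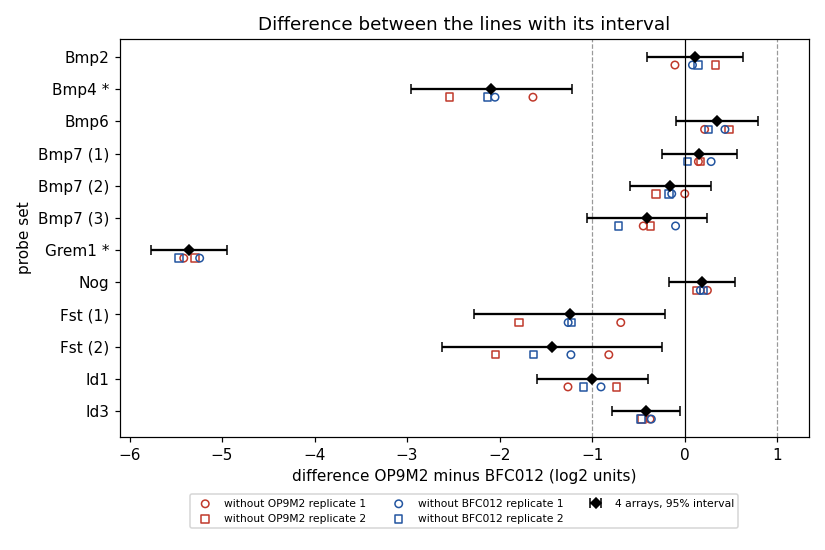
Difference OP9M2 minus BFC012 (horizontal axis, log2 units) of each of the 12 probe sets (rows): black diamonds are the fit of all 4 arrays with the 95% interval, open symbols the difference when the named array was left out, and dashed lines mark 1 log2 unit in either direction. The intervals of Grem1 (-5.76 to -4.95) and Bmp4 (-2.96 to -1.22) lie wholly left of -1, those of Fst, Id1 and Id3 lie left of 0, and those of Bmp2, Bmp6, Bmp7 and Nog include 0.

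Of the 9 genes, 5 (Bmp4, Grem1, Fst, Id1 and Id3) had both OP9M2 arrays below both BFC012 arrays, where 24.8% of all genes did. A further 3 (Bmp6, Bmp7 and Nog) did not overlap in the other direction, with levels at or near background, where 28.4% of all genes were higher in this way. A gap between the arrays in either direction was found for 53.2% of all genes. The median difference was -0.42 over the 9 genes and 0.03 over all genes. On each array the log2 level of Grem1 minus that of Bmp4 was -5.52 and -6.54 in OP9M2 and -2.70 and -2.84 in BFC012. Levels of different probe sets are not comparable, but the shift of this value between the lines (-3.26) is. Because Grem1 was below background in OP9M2, that value rests on a level without measured signal, and with Grem1 set at the background level the shift was -2.29. It was not tested.

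The genes also varied unequally within OP9M2. The 2 OP9M2 arrays were 0.90 log2 units apart in Bmp4 and 1.10 and 1.22 in Fst, gaps as large as or larger than those of 92.1% to 96.3% of all probe sets. In each case OP9M2 replicate 1 was the lower array. Id1 was the other way round, 0.53 higher on replicate 1. Grem1 (0.12) and Id3 (0.09) lay closer together than the median probe set. On the same arrays all 4 measured adipocyte markers were higher on OP9M2 replicate 1 than on replicate 2, with mean levels of 13.02 and 10.41. Most of that gap came from Adipoq, at 12.84 and 5.41. Fabp4 (13.69 and 13.09), Lpl (13.88 and 12.02) and Pparg (11.67 and 11.11) differed less and were far above background on both arrays. In BFC012 the mean level of these markers was 5.48 and 5.13. The part of fat cell content, of the poly-A and ribosomal RNA signals above, and of the mesothelial markers of BFC012 in the differences was not tested.

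**Figure D3:**
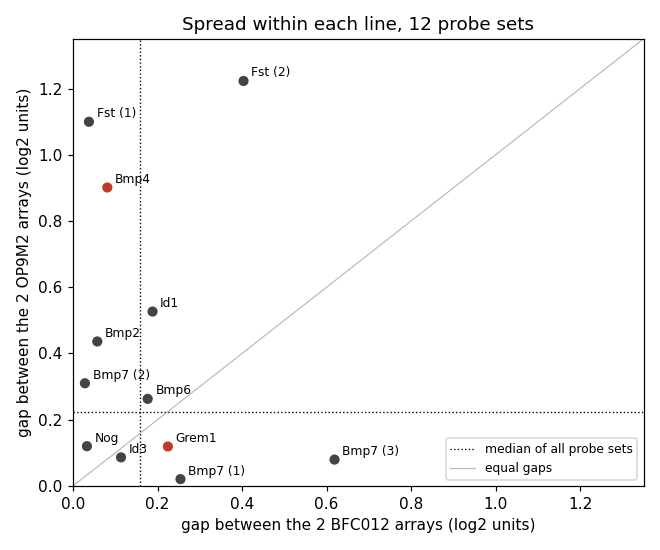
Absolute gap in log2 units within OP9M2 (vertical axis) and within BFC012 (horizontal axis) for the 12 probe sets, each between the line's replicates, with called probe sets in red; dotted lines are the medians of all probe sets (0.22 and 0.16) and the grey line marks equal gaps. Bmp4 and both probe sets of Fst lie far above the line, and Grem1 lies below it.

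The rest of the pathway was described from lists of genes grouped by role, of which 74 of 81 were measured. Of these, 2 (2.7%) were called higher and 6 (8.11%) lower in OP9M2, where 2.36% and 3.56% of all genes were, and 66 were not called. The median difference was 0.05. Of the 74, 19 (25.7%) had both OP9M2 arrays below both BFC012 arrays and 18 (24.3%) had both above, shares near the 24.8% and 28.4% of all genes. On no array were 17 of the 74 above background. All 8 calls were lost without BFC012 replicate 1 (adjusted p from 0.0837 to 0.344) and without BFC012 replicate 2 (0.0949 to 0.405).

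Of 12 other BMP and GDF ligand genes, Bmp1 was called lower and 11 were not called. Bmp1 is no ligand but a metalloprotease that processes procollagen and cleaves the antagonist chordin. It was at 8.50 and 8.22 in OP9M2 against 10.10 and 10.16 in BFC012 (-1.77 ± 0.16, 3.40-fold, adjusted p = 0.0117). A second probe set of Bmp1 was called at -1.80, and the other was not (0.04) and lay below background.

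Of 13 receptors and co-receptors, Eng was called lower and 12 were not called. Eng encodes endoglin, a co-receptor for BMP9 and TGF-beta that is also used to sort mesenchymal stem cells, and it was at 8.43 and 8.28 in OP9M2 against 10.45 and 10.02 in BFC012 (-1.88 ± 0.20, 3.67-fold, adjusted p = 0.0175). Both of its probe sets were called. The type I receptor Bmpr1a (-0.62 ± 0.14, adjusted p = 0.0982) and the type II receptor Bmpr2 (-0.12 ± 0.34, adjusted p = 0.905) were above background on all 4 arrays and not called by their brightest probe set, though 2 of the 6 probe sets of Bmpr1a were called lower. Bambi, a decoy receptor that is itself a target, was at 6.40 and 6.13 in OP9M2 against 6.84 and 6.65 in BFC012 (-0.48 ± 0.17, adjusted p = 0.234).

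Of 16 other antagonists and extracellular modulators, 1 was called higher, 2 lower and 13 were not called. Nbl1, which encodes the gremlin relative DAN, was at 6.56 and 6.30 in OP9M2 against 7.92 and 7.82 in BFC012 (-1.44 ± 0.16, 2.71-fold, adjusted p = 0.0191). Crim1, a membrane protein that holds BMPs at the cell that makes them, was at 8.14 and 8.61 in OP9M2 against 10.03 and 10.16 in BFC012 (-1.72 ± 0.21, adjusted p = 0.0240), while its other probe set was not called (-1.27). Fstl1, a secreted glycoprotein related to follistatin, went the other way, at 13.75 and 13.38 in OP9M2 against 12.48 and 12.29 in BFC012 (1.18 ± 0.19, 2.26-fold, adjusted p = 0.0481). Its other probe set was at 1.23 and not called (adjusted p = 0.102). The call of Fstl1 was also lost with quantile normalization or median centring (adjusted p = 0.0532 and 0.05005; range over alternatives 0.0176 to 0.405) and, for its size, without OP9M2 replicate 1 (0.99).

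Of 11 Smads and their regulators 0 were called by limma, with 3 at an unadjusted p under 0.05. The largest difference among their brightest probe sets was that of Smurf2, an E3 ligase for Smads and receptors (0.91 ± 0.16, adjusted p = 0.0573). Smad1 was at 10.36 and 10.43 in OP9M2 against 11.23 and 11.36 in BFC012, a difference of -0.90 ± 0.14 that passed the adjusted p (0.0438) and not the minimum size. That miss depends on the log base. With log2 of the deposited values Smad1 passed both, and 9 pathway genes were called, 7 of them lower. Of 3 probe sets each, 1 of Smad1 was called lower and 1 of Smurf2 higher. Smad5, which relays the same signal, was not called (0.70 ± 0.20, adjusted p = 0.163). The inhibitory Smads, Smad6 (0.05 ± 0.18) and Smad7 (-0.33 ± 0.27), are themselves induced by BMP and were not called.

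Of 14 other BMP target genes, 1 was called higher, 2 lower and 11 were not called. Dlx5, a homeobox gene of bone formation, was at 8.55 and 8.63 in OP9M2 and below background in BFC012 at 4.96 and 4.25 (3.98 ± 0.27, at least 5.63-fold, adjusted p = 0.00570). The transcription factors Gata2 (-1.14 ± 0.15, adjusted p = 0.0296) and Tbx3 (-1.38 ± 0.15, adjusted p = 0.0175) were lower. The other probe set of Gata2 was above background on all arrays and not called (-0.90, adjusted p = 0.0530). The call of Gata2 was also lost with a trended prior (adjusted p = 0.0553; range over alternatives 0.0269 to 0.310). Tbx3 was below background in OP9M2 and only just above it in BFC012, which leaves a fold of at least 1.12. Its second called probe set, at -1.54, was below background on all arrays. The remaining Tbx3 probe sets, also below background on all arrays, were at 0.05, 0.07 and 0.11 and not called. The remaining Id genes were not called. Id2 was at 11.13 and 12.36 in OP9M2 against 10.57 and 10.54 in BFC012 (1.20 ± 0.43, adjusted p = 0.239). The 3 probe sets of Id2 differed in sign, from -0.56 to 1.20, and none was called. Id4 overlapped between the lines (0.34 ± 0.72).

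With limma, 0 of 5 activin and inhibin genes and 0 of 3 E protein genes, the partners of follistatin and of the Id proteins, were called, with 0 and 1 at an unadjusted p under 0.05. By the brightest probe set of each gene, the largest differences were those of Inhba, the activin A subunit (-0.41 ± 0.29, adjusted p = 0.543), and of Tcf3, which encodes E12 and E47 (-0.36 ± 0.13, adjusted p = 0.245). Dimmer probe sets of Inhbb (-1.40) and Tcf12 (-0.89) had larger differences and were not called.

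**Figure D4:**
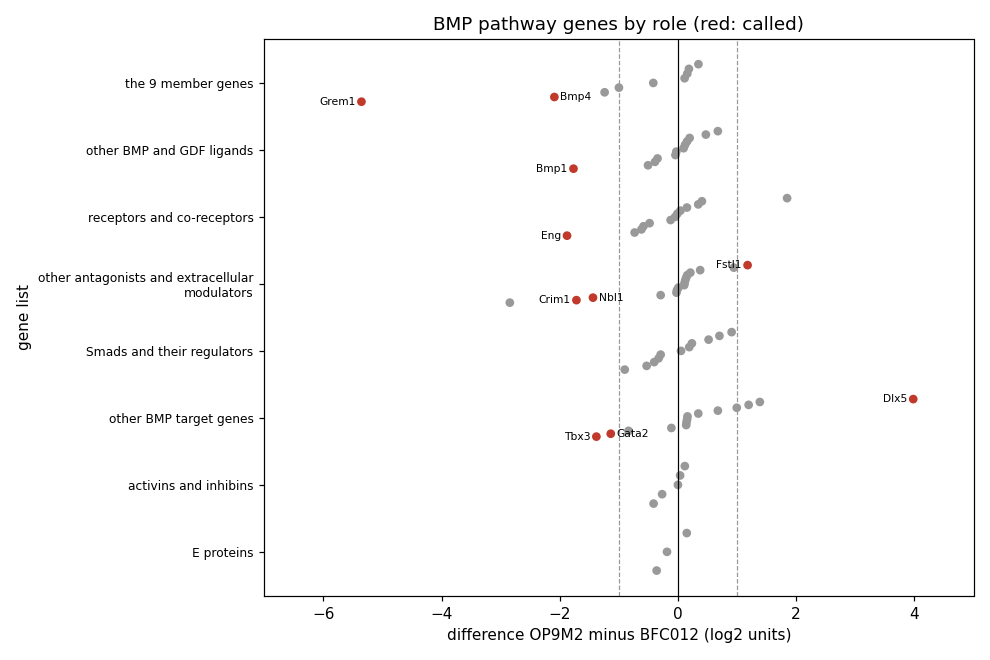
Difference OP9M2 minus BFC012 (horizontal axis, log2 units) of the 9 genes of the set and of the 74 other BMP pathway genes by role (rows), each gene by its brightest probe set, spread vertically within its row for legibility; red points with names are called, grey points are not, and dashed lines mark 1 log2 unit. Grem1 (-5.35) has the largest absolute difference of all genes shown, and Dlx5 (3.98) the largest towards OP9M2.

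The genes whose levels moved most like the called ones over the 4 arrays were found among 12298 other genes above background on at least 1 array, by the Euclidean distance between levels from which each gene's own mean had been taken. For Grem1 they were Pde3b (distance 0.10 log2 units), Peg3 (0.30) and Daam2 (0.36), with differences of -5.27, -5.26 and -5.06. Grem1 and these 3 genes were all below background on both OP9M2 arrays, so their distances and their order rest in part on levels without measured signal. For Bmp4 they were Scarf2 (0.07), Tnfrsf18 (0.17) and Krt7 (0.25), with differences of -2.10, -2.01 and -2.19. Of these, Tnfrsf18 and Krt7 were below background on both OP9M2 arrays. Scarf2 had nearly the values of Bmp4 from array to array, at 8.19 and 9.18 in OP9M2 and 10.80 and 10.78 in BFC012, and with an adjusted p of 0.0530 it was not called. With 4 arrays in 2 lines, such likeness mostly repeats the size of the difference.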

How the data were processed

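Amplified total RNA (Ambion kit) was run on mouse expression arrays of Affymetrix. The authors deposited 1 intensity per probe set and array, and named RMA and affy as processing tools and Bioconductor for computation. No version of RMA or affy was given. The values reached 2958707, above the scanner maximum of 65535, and spanned 2.06 to 14.90 after taking natural logarithms, as RMA log2 values do. The natural logarithm was therefore read as the log2 level. The base stays unstated by the authors, and log2 of the deposited values, which makes every difference 1.44 times larger with the same p, was run as an alternative. The signal of the hybridization controls rose by 0.84 per doubling of their nominal amount on the scale used and by 1.21 on the other, which does not settle the base. Deposited medians were between 431 and 451.

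Of 45101 probe sets, 64 array controls were left out. The annotation named 1 gene for 34945 probe sets, several for 932 and none for 9160, and symbols were updated through the RefSeq gene table for 34741. A gene was represented by its brightest probe set (mean of 4 arrays). The lines were compared by lmFit and eBayes of limma 3.58.1 (R 4.3.3, two-sided, no covariate) with Benjamini-Hochberg adjustment over all 45037 probe sets, after the 5% false discovery rate and 2-fold change in the study's methods. Background was set at the 95th percentile of 81 olfactory, vomeronasal and trace amine receptor probe sets. Where a line was below it on both arrays, the fold was computed against that level and written as at least. The script was tested on simulated data. The genes, the pathway lists and the rule for naming genes were chosen with earlier results of these data known. Named were all genes of the set, every called pathway gene, the largest difference of a list without a call, and the 3 genes most like each called gene; other genes were named after their values were seen. The number of arrays limits the precision. Nothing states that the 2 arrays of a line came from separate cultures beyond the label of biological replicates. The p-values thus measure the spread between these arrays, as moderated by limma over all probe sets.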

Additional observations from a re-analysis of the deposited data

How the results depend on the processing

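Leaving out single arrays changed the counts most. Over the 4 such fits the number of called probe sets lay between 0 and 4437 of all, 0 and 4 of the 12, genes of the set between 0 and 3 of 9, and pathway genes between 0 and 14 of 74. The lone array is then assumed to vary like the other line. Of all probe sets 3210 were called without OP9M2 replicate 1 and 4437 without OP9M2 replicate 2. Without either BFC012 array, limma called 0 probe sets, with 4568 and 4517 at an unadjusted p under 0.05. The differences of 2 probe sets below background changed sign without OP9M2 replicate 1: Bmp2 (-0.11, with 0.33 as the highest value when any 1 array was left out) and a Bmp7 probe set (0.00076, with -0.31 as the lowest). The deviations of same-numbered arrays from their line means correlated at -0.10, so the shared numbers were not taken as pairs. With the replicate number as a block, 707 probe sets were called, among them 1 of the 12 (Grem1, with Bmp4 at adjusted p = 0.119), so 1 gene of the set and 1 pathway gene (Dlx5). The block thus ended the calls of Bmp1, Crim1, Eng, Fstl1, Gata2, Nbl1 and Tbx3 (highest adjusted p = 0.0994). With crossed numbers, an alternative chosen after seeing the data, the counts were 1377, 1, 1 and 3, with the calls of Bmp4 (adjusted p = 0.0618), Crim1, Eng, Fstl1, Gata2 and Nbl1 lost. Counts under log2 of the deposited values, quantile normalization, median centring, a background filter, a trended prior, averaged probe sets and no minimum difference stayed within 1.5 times the main ones, and Grem1 and Bmp4 remained called in the first 5 of these.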

Other observations

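Bmper, which encodes a secreted BMP regulator, was picked out after its values were seen. It was at 10.76 and 7.18 on the OP9M2 arrays and at 11.66 and 11.96 on the BFC012 arrays (-2.84 ± 1.20, limma adjusted p = 0.310; SE moderated by limma, 2 arrays per line). The gap between the OP9M2 arrays was larger than the difference between the lines, and here OP9M2 replicate 2 was the lower array, opposite to Bmp4 and Fst. Rgma, a BMP co-receptor, was also picked out afterwards, at 8.61 and 7.48 in OP9M2 and 6.17 and 6.23 in BFC012 (1.85 ± 0.40, adjusted p = 0.0927).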
